A study of Mus musculus with 13 samples.

Results

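The fibroblast growth factor (FGF) system was described through 10 genes, 6 ligands (Fgf1, Fgf2, Fgf7, Fgf10, Fgf18 and Fgf21) and 4 receptors (Fgfr1, Fgfr2, Fgfr3 and Fgfr4), matched by mouse symbol among the 53379 genes of a bulk RNA-seq count table. Each symbol matched 1 gene, and all 10 passed the filter on low counts. The libraries came from CD45- thymic stroma cells of wild type C57BL/6 mice aged 2 months. There were 4 libraries at steady state, labelled untreated and named in the count table as phosphate-buffered saline (PBS) controls of days 1, 4 and 7. Another 3 libraries each came from mice given sublethal total body irradiation (TBI) and taken 1, 4 or 7 days later. TBI depletes developing thymocytes and is followed by endogenous repair. No transgene or deletion was carried by any group. The study's methods treat the bulk libraries as biological replicates and the labels do not name the animals behind each, so p-values measure the spread between these libraries.

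FGFs are secreted proteins that bind receptor tyrosine kinases together with heparan sulfate, and receptor binding activates the adaptor FRS2 and the RAS and ERK cascade. In the thymus, Fgf7 (keratinocyte growth factor) and Fgf10 are made by mesenchymal cells and act on the epithelial splice form of Fgfr2, and this exchange supports the growth of thymic epithelial cells (TECs). Fgf21 belongs to the endocrine FGFs, which bind heparan sulfate weakly and signal through an FGF receptor paired with a Klotho protein.

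Total counts ran from 15721866 to 52056896 per library (median 44078906), and the smallest count of any of the 10 genes in a library was 26, so none was near the floor of 3 counts. All 12 fibroblast, 11 TEC and 8 endothelial markers were detected in every library. Markers of blood cells were also detected in the CD45- fraction, although 1 of 5 erythroid markers was at 0 in at least 1 library of day 4. The summed level of 11 thymocyte markers ran from 224 to 757 CPM (read counts scaled to library size) at steady state, 112 to 144 CPM at day 1, 20.3 to 30.4 CPM at day 4 and 196 to 4579 CPM at day 7. The summed level of 11 TEC markers ran from 1160 to 3895 CPM at steady state, 1736 to 3125 CPM at day 1, 3079 to 4895 CPM at day 4 and 916 to 1656 CPM at day 7.

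Fgf1 had the highest level per length of the 10 genes in every group. Its level per exonic length (RPKM) was 60.0 ± 32.4 (SD, n = 4) at steady state, 25.4 ± 3.39 (SD, n = 3) at day 1, 51.4 ± 8.50 (SD, n = 3) at day 4 and 58.5 ± 9.83 (SD, n = 3) at day 7. At steady state Fgf21 (15.9 RPKM), Fgfr1 (15.2), Fgf10 (10.3), Fgf7 (8.54), Fgfr2 (5.26), Fgf2 (4.38), Fgfr3 (2.54), Fgf18 (2.42) and Fgfr4 (0.750) followed in this order of mean RPKM, and the libraries of every pair of neighbours in the order overlapped. After TBI, Fgf1 stood clear of the next gene at all 3 times. That next gene was Fgfr1 at day 1 (13.2 RPKM) and Fgf10 at days 4 and 7 (19.5 and 13.6 RPKM). Fgfr4 had the lowest mean RPKM in every group. Fgf21 moved from the second place at steady state to the ninth at day 7 (1.51 RPKM), where its libraries overlapped those of Fgfr3 (1.57 RPKM). Its steady-state mean leaned on the PBS day 1 library at 42.1 RPKM, as the others held 2.92, 13.5 and 4.94 RPKM. Among the receptors the order of mean RPKM was Fgfr1, Fgfr2, Fgfr3 and Fgfr4 in each of the 4 groups.

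None of the 10 genes passed an adjusted p of 0.05 in any of the 6 comparisons between groups, by the quasi-likelihood F-test of edgeR, adjusted after Benjamini and Hochberg over the 19984 genes tested. In the same fit, 2.35% of all genes tested passed for day 1 against steady state, 0.29% for day 4 against steady state, 0.005% for day 7 against steady state, 1.43% for day 4 against day 1, 8.13% for day 7 against day 1 and 3.9% for day 7 against day 4. At an unadjusted p under 0.05 the numbers among the 10 were 2, 2, 1, 2, 2 and 1 in that order of comparisons, against 17.2%, 13%, 13.5%, 13.7%, 23.9% and 18.7% of all genes. DESeq2 called Fgf1 for day 1 against steady state, Fgf21 for day 7 against steady state, Fgf10 for day 4 against day 1, both Fgf1 and Fgf21 for day 7 against day 1, and none in the other comparisons. With the same filter, DESeq2 called 1399, 645, 1081, 960, 2940 and 1919 genes in all, in the same order of comparisons. Beside these totals, 1 or 2 calls among 10 genes are not a result about the FGF genes as a group. A test of any difference between the 4 groups called none of the 10 by edgeR, where 6.66% of all genes passed. By DESeq2 this test called 2 of the 10. The DESeq2 share over all genes was not counted, so these 2 calls cannot be weighed against it. The lowest adjusted p of that edgeR test was 0.0751 for Fgf21.

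The direction of the estimates was mostly downward after TBI. Of the 10 genes, 9 had a log2 fold change below 0 at day 1 against steady state, 8 at day 4 and 8 at day 7, where 56.4%, 58.9% and 49.7% of all genes tested had one. The median log2 fold change of the 10 was -0.52, -0.73 and -0.17 at the 3 times, beside -0.10, -0.13 and 0.00 for all genes. These 3 comparisons share the steady-state libraries. At day 1, Fgf2, Fgf7, Fgf10, Fgf18, Fgf21 and Fgfr1 changed sign in at least 1 alternative fit. Fgf1, Fgfr2, Fgfr3 and Fgfr4 stayed below 0 there in all of them. At day 4, Fgf1 and Fgf7 changed sign in at least 1. The direction at day 7 depended on the fit too. There, Fgf1, Fgf2, Fgf18 and Fgfr1 turned above 0 when the score of thymocyte markers was a covariate, when the family of tags in the column names of the count table was one, and when day 7 replicate 2 was left out. With the tag family Fgfr2 turned above 0 too and Fgf7 below it. In bulk samples, fewer cells of the type that makes a transcript and less of the transcript per cell cannot be told apart.

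**Figure D1:**
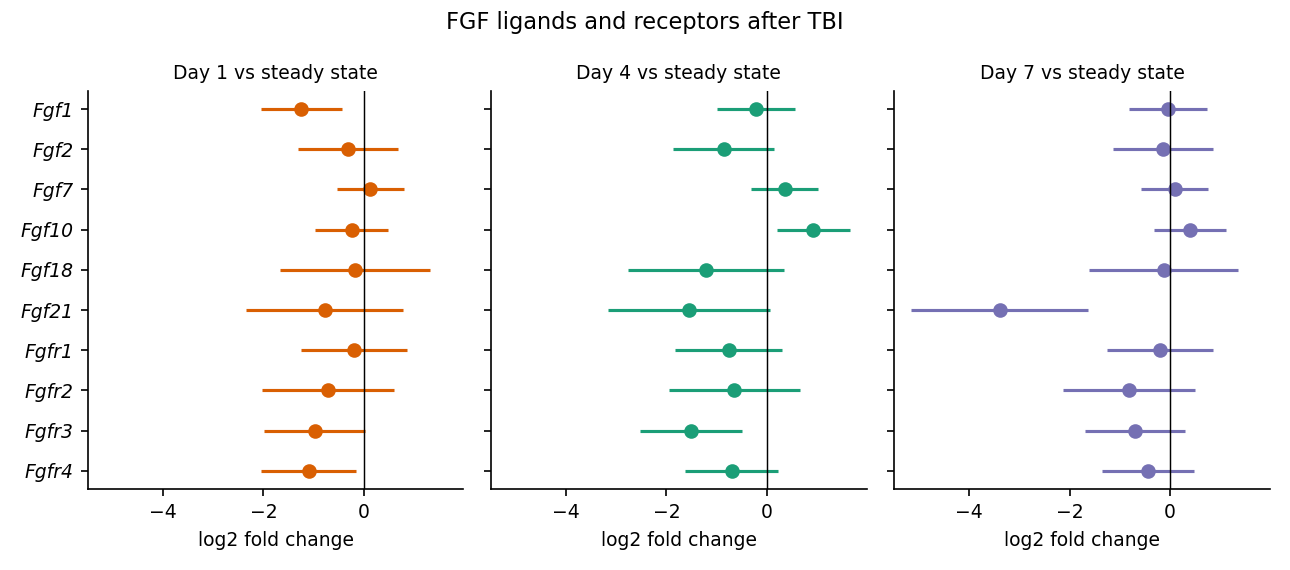
Log2 fold change of each ligand and receptor after TBI against steady state, 1 panel a day, from the edgeR fit of all 13 libraries, with lines for 95% confidence intervals not adjusted for multiple tests. The interval lies wholly below 0 for Fgf1 and Fgfr4 at day 1, Fgfr3 at day 4 and Fgf21 at day 7, wholly above 0 for Fgf10 at day 4, and covers 0 for every other gene and time.

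Among the ligands, Fgf1 was at its lowest at day 1. Fgf1 (ENSMUSG00000036585, chromosome 18, minus strand) encodes acidic FGF, which binds all FGF receptors. The 3 day 1 libraries held 134, 103 and 117 CPM, and the steady-state libraries split into a pair at 134 and 164 CPM and a pair at 406 and 412 CPM. The highest day 1 library (134.25 CPM) and the lowest steady-state library (134.28 CPM) all but touched. The log2 fold change of day 1 against steady state was -1.24 (SE 0.371, adjusted p = 0.113 by edgeR). Fgf1 was 209, 284 and 224 CPM at day 4 and 311, 221 and 283 CPM at day 7, so every library of both times lay above all 3 of day 1. The log2 difference was 1.02 (SE 0.387, adjusted p = 0.258) between days 4 and 1 and 1.20 (SE 0.389, adjusted p = 0.0759) between days 7 and 1. Leaving out the PBS day 1 library or the PBS day 4 library, the 2 lowest at steady state, gave day 1 against steady state a log2 fold change of -1.42 in both fits and an adjusted p of 0.0435 and 0.0478.

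Of 61 marker genes of the stroma and blood lists, the one whose log2 CPM followed Fgf1 most closely over the 13 libraries was Dpp4 (Pearson's r = 0.897, Spearman's rho = 0.907), a surface peptidase of capsular fibroblasts. Pi16, which marks the same fibroblasts, came next (r = 0.838). Dpp4 ran from 87.0 to 197 CPM at day 1, 214 to 244 CPM at day 4 and 335 to 410 CPM at day 7, and from 134 to 422 CPM at steady state. By the mean of their log2 CPM, the 12 fibroblast markers followed Fgf1 less closely (r = 0.488) than the 3 mesothelial markers did (r = 0.708). At day 1 against steady state, 1 of the 12 fibroblast markers rose and 1 fell, and none of the 3 mesothelial markers passed. Such values share the libraries and their scaling, and the part of fibroblast number in the level of Fgf1 was not tested.

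Fgf10 was higher at day 4 than in any other group. Fgf10 (ENSMUSG00000021732, chr13:118669791-118792115, plus strand) encodes a mesenchymal ligand of the epithelial form of Fgfr2. The day 4 libraries held 82.3, 106 and 81.6 CPM, above all 4 steady-state libraries (70.0, 23.7, 66.3 and 29.6 CPM), all 3 of day 1 (43.8, 35.0 and 41.7 CPM) and all 3 of day 7 (72.0, 61.3 and 54.4 CPM). The steady-state libraries again formed a high and a low pair. The log2 difference of day 4 was 0.92 against steady state (SE 0.333, adjusted p = 0.286) and 1.16 against day 1 (SE 0.364, adjusted p = 0.165). At day 7 Fgf10 lay above day 1 without overlap (log2 difference 0.64, SE 0.361, adjusted p = 0.307) and below day 4 without overlap (log2 difference -0.52, SE 0.360, adjusted p = 0.480). Its exons share 2.67% of their bases with Gm16263 on the opposite strand.

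The genes nearest to Fgf10 in pattern were Pla2g7 (r = 0.917), Trpm2 (r = 0.904) and Tcf21 (r = 0.900), among 14590 genes with a mean of at least 1 CPM, over 13 libraries. Among the markers, the nearest were the TEC genes Ly75 (r = 0.778) and Foxn1 (r = 0.770), the latter the master transcription factor of TECs. By the mean of their log2 CPM, the 11 TEC markers followed Fgf10 less closely (r = 0.587) than the 3 Schwann markers did (r = 0.708). Not every TEC marker was high at day 4. Aire was 3.06 to 4.83 CPM then, beside 3.03 to 59.0 CPM at steady state. The summed TEC markers ran from 3079 to 4895 CPM at day 4. The highest libraries of steady state (3895 CPM) and day 1 (3125 CPM) lay inside that range. None of the 11 TEC markers passed at day 4 against steady state (median log2 fold change 0.80). Their part in the level of Fgf10 was not tested.

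Fgf21 showed the widest fold range between libraries at steady state and the largest difference after TBI. Fgf21 (ENSMUSG00000030827, chr7:45613886-45615490, minus strand) encodes an endocrine FGF best known as a hormone of the liver under fasting. The steady-state libraries held 40.04, 2.78, 12.8 and 4.70 CPM, a range of 14.4-fold. At day 1 they were 13.6, 5.201 and 7.65 CPM, at day 4 2.97, 6.74 and 5.63 CPM, and at day 7 1.46, 1.82 and 1.03 CPM. All 3 day 7 libraries were below the lowest library of each other group, while days 1 and 4 overlapped with steady state. The log2 difference of day 7 was -3.39 against steady state (SE 0.816, adjusted p = 0.117), -2.61 against day 1 (SE 0.814, adjusted p = 0.0667) and -1.84 against day 4 (SE 0.795, adjusted p = 0.232).

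The test of Fgf21 depended on the tool and on single libraries. DESeq2 gave an adjusted p of 0.000586 for day 7 against steady state and 0.00583 against day 1. In edgeR the first comparison passed without the PBS day 4 library (log2 difference -3.74, adjusted p = 0.0454) and the second without the PBS day 1 library (-2.68, adjusted p = 0.0145) or the PBS day 4 library (-2.61, adjusted p = 0.0313).

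Among the 61 markers Fgf21 lay closest to Aire (r = 0.922, rho = 0.852), the regulator of tissue-restricted genes in medullary TECs, followed by the keratin Krt14 (r = 0.771). The library with the most Fgf21, PBS day 1 at 40.04 CPM, also held the most Aire at 59.0 CPM. The library with the least of both was day 7 replicate 3, at 1.03 CPM of Fgf21 and 0.841 CPM of Aire. Aire was 3.03 to 59.0 CPM at steady state and 6.50 to 10.7 CPM at day 1. It was 3.06 to 4.83 CPM at day 4 and 0.841 to 2.93 CPM at day 7. Its day 7 libraries too lay below those of every other group, although the highest nearly reached the lowest of steady state and day 4. By the mean of their log2 CPM, the 11 TEC markers followed Fgf21 less closely (r = 0.525) than Aire did. Over all genes compared, the nearest to Fgf21 were Gm48239 (r = 0.987), Blnk (r = 0.980) and Il23a (r = 0.978). The part of medullary TEC number in the level of Fgf21 was not tested.

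**Figure D2:**
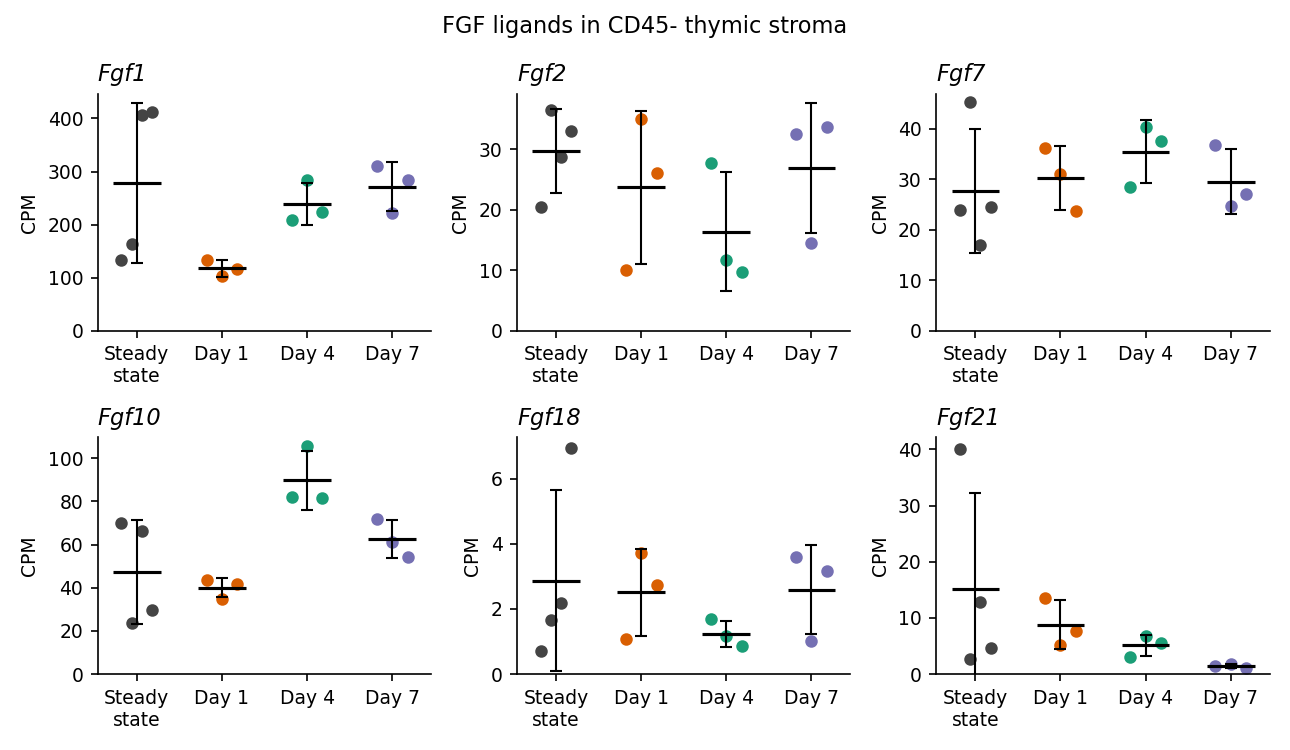
CPM of the 6 FGF ligands in each library (points) at steady state and at each day after TBI, with the group mean (horizontal line) and SD (error bars, n = 4 at steady state and n = 3 at each day). Each panel has its own axis from 0, and an SD that reaches below 0 is drawn down to it. Fgf1 is lowest at day 1, Fgf10 highest at day 4 and Fgf21 lowest at day 7, each without overlap with the other groups, although the lowest steady-state library of Fgf1 lies only just above day 1.

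The promoter of Fgf21 is shown because this gene had the largest difference. RefSeq promoter windows of build GRCm38.p6, 300 bases from 250 before to 50 after the start, were given for 8 of the 10 genes, and not for Fgf1 and Fgfr1. They were searched on both strands for GGGCGG (the GC box of SP1-like factors), TGATGNAA (the core of the amino acid response element), TATAAA (the TATA box) and TGANTCA (the AP-1 site). The window of Fgf21 held the first 3 and was the only one of the 8 genes with a TATA box or an amino acid response element match, which 13.6% and 3.97% of the 32851 promoters in the table hold. The 250 bases before the start of Fgf21, chr7:45615491-45615740 on the minus strand, read as follows from 5′ to 3′. Capitals mark, in order, a GC box, the amino acid response element, 2 more GC boxes and the TATA box.

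Fgf21: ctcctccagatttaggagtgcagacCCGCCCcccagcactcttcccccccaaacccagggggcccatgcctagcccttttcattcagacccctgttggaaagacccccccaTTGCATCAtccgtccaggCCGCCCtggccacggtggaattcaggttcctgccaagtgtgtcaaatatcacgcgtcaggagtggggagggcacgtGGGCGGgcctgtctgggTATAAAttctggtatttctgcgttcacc

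Such matches are a description of the letters and not sites of binding. The TATA box match begins 28 bases before the start, and the amino acid response element match, on the opposite strand, 139 bases before it. No window held the AP-1 letters, which 7.81% of all promoters hold, and 6 of the 8 genes held a GC box, as did 35.7% of all promoters.

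Fgf7 stayed within the range of steady state at all 3 times. Fgf7 (ENSMUSG00000027208, chr2:126034658-126091185, plus strand), keratinocyte growth factor, was 24.0, 45.4, 17.0 and 24.6 CPM at steady state. After TBI it was 36.2, 31.0 and 23.7 CPM at day 1, 28.6, 40.4 and 37.5 CPM at day 4, and 36.9, 24.7 and 27.1 CPM at day 7. The log2 fold changes against steady state were 0.13, 0.36 and 0.09 at days 1, 4 and 7, with 95% confidence intervals from -0.54 to 0.80, -0.31 to 1.02 and -0.58 to 0.76, so that a rise of about 2-fold at day 4 lies at the edge of what these libraries allow. The genes nearest to it were Gpx4-ps2 and Gpx4 (r = 0.934 and 0.930), a pseudogene and its parent that can share reads, and Ncald (r = 0.931).

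Fgf18 was among the least abundant of the ligands. Fgf18 (ENSMUSG00000057967, chr11:33117430-33147400, minus strand), known for its role in bone and lung growth, was 0.702, 1.68, 2.17 and 6.92 CPM at steady state and ran from 0.870 to 3.71 CPM in the 9 libraries after TBI. Its libraries overlapped in all 6 comparisons. The lowest log2 fold change was at day 4 against steady state (-1.22, SE 0.719, adjusted p = 0.468).

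Fgf2 differed more between libraries of a group than between groups. Fgf2 (ENSMUSG00000037225, chr3:37348346-37410108, plus strand), basic FGF, was 20.5, 36.6, 28.7 and 33.1 CPM at steady state. It was 10.1, 35.1 and 26.1 CPM at day 1, 27.8, 11.7 and 9.81 CPM at day 4, and 32.5, 14.5 and 33.6 CPM at day 7. Each time after TBI held at least 1 library below all 4 of steady state and at least 1 library inside their range. The log2 fold changes against steady state were -0.32, -0.86 and -0.14 (adjusted p of 0.439 or more). Its exons share 13.2% of their bases with Gm43439 on the same strand and Nudt6 on the opposite strand, and without strand information such reads cannot be assigned.

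Of the receptors, Fgfr1 and Fgfr2 divided the libraries in the same way as Fgf2. Fgfr1 (ENSMUSG00000031565, chr8:25513654-25575718, plus strand), the main receptor of mesenchymal cells, was 110, 176, 153 and 159 CPM at steady state. It was 43.5, 186 and 162 CPM at day 1, 155, 61.1 and 49.0 CPM at day 4, and 154, 74.9 and 162 CPM at day 7. Fgfr2 (ENSMUSG00000030849, chr7:130162451-133123350, minus strand), whose epithelial splice form receives Fgf7 and Fgf10, was 61.0, 35.9, 87.6 and 32.7 CPM at steady state. After TBI it was 9.02, 43.6 and 47.1 CPM at day 1, 65.8, 21.5 and 17.0 CPM at day 4, and 38.2, 15.7 and 38.1 CPM at day 7. The counts are per gene, so the epithelial and mesenchymal splice forms of Fgfr2 were not separated. The exons of Fgfr2 share 3.04% of their bases with Ctbp2 on the same strand, and those of Fgfr1 1.66% with Gm16159 on the opposite strand. The log2 fold changes against steady state ran from -0.76 to -0.20 for Fgfr1 and from -0.83 to -0.65 for Fgfr2, with adjusted p of 0.494 or more and overlapping libraries throughout.

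The same 4 libraries, day 1 replicate 1, day 4 replicates 2 and 3 and day 7 replicate 2, were the 4 lowest of the 13 for Fgf2, Fgfr1 and Fgfr2. Fgfr1 ran from 43.5 to 74.9 CPM in these and from 110 to 186 CPM in the other 9. This is a property of the libraries that many genes share, as 1611 of the 19984 genes tested (8.06%) had the same 4 lowest libraries. Of the 61 markers, 1 did so, the endothelial gene Plvap, which encodes the diaphragm protein of fenestrated vessels. By the mean of their log2 CPM, the 8 endothelial markers followed Fgfr1 less closely (r = 0.340) than Plvap did (r = 0.865). The marker nearest to Fgfr2 was the TEC gene Epcam (r = 0.863), ahead of Plvap (r = 0.788). The part of any cell type in these levels was not tested. Over the 13 libraries log2 CPM of Fgf2 and Fgfr1 had r = 0.985 (rho = 0.890), Fgfr1 and Fgfr2 r = 0.811 (rho = 0.489), and Fgf2 and Fgfr2 r = 0.743 (rho = 0.418). The higher r than rho for Fgfr2 goes with the gap between the 4 libraries and the rest.

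**Figure D3:**
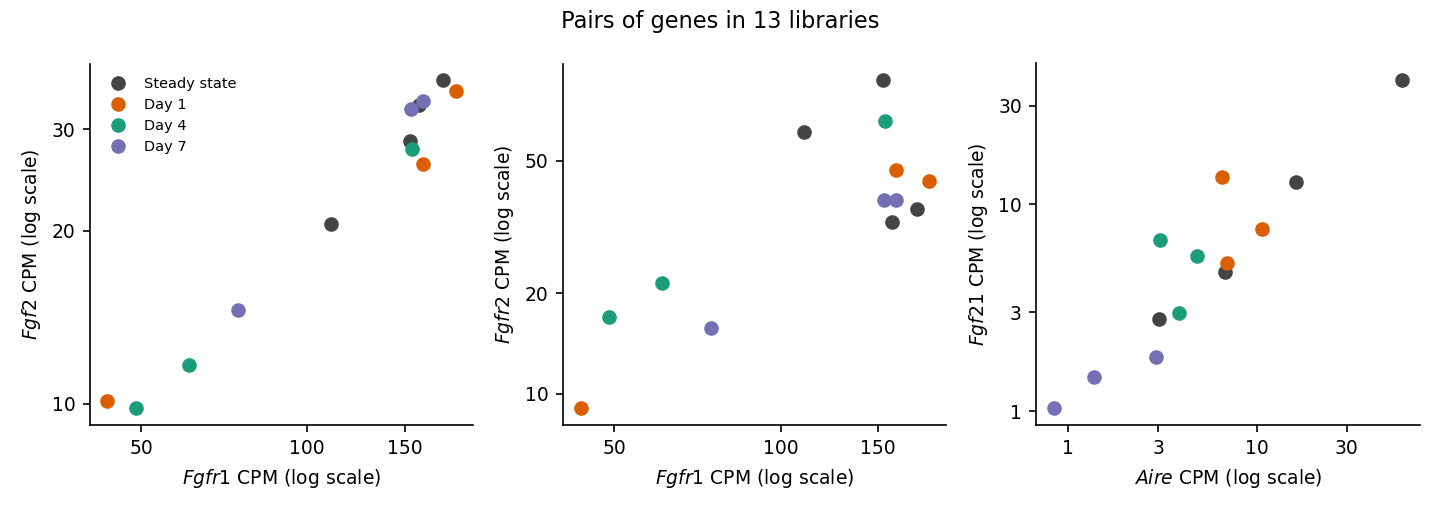
CPM of Fgf2 against Fgfr1, Fgfr2 against Fgfr1 and Fgf21 against Aire in the 13 libraries, 1 point each, coloured by group, on log axes. In the first 2 panels 4 libraries from days 1, 4 and 7 lie apart at 43.5 to 74.9 CPM of Fgfr1, and in the third the day 7 libraries lie at the lower left and 1 steady-state library at the upper right.

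The promoter windows of Fgf2 and Fgfr2 are shown because these genes had the same 4 lowest libraries, and they differ in composition. The window of Fgf2 had 62.7% G and C and 24 CpG dinucleotides, and that of Fgfr2 43.7% and 4, beside a median of 52.7% and 7 over all promoters. The stretches are the 250 bases before the RefSeq start, chr3:37348403-37348652 on the plus strand for Fgf2 and chr7:130266809-130267058 on the minus strand for Fgfr2, with the 1 GC box match in capitals. No searched motif was in the window of Fgfr2.

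Fgf2: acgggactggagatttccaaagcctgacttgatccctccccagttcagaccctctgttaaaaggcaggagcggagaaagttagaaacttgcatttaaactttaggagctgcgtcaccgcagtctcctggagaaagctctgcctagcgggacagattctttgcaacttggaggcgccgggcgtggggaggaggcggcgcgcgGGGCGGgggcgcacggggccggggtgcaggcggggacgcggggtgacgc

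Fgfr2: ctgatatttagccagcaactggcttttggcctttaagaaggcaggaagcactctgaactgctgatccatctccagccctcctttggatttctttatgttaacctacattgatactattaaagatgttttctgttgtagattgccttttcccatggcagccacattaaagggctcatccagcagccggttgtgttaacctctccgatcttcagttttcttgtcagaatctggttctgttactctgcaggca

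Fgfr3 was lower in mean after TBI than at steady state at all 3 times. Fgfr3 (ENSMUSG00000054252, chr5:33721674-33737068, plus strand), known as a brake on bone growth, was 28.4, 7.68, 21.2 and 15.5 CPM at steady state. It was 5.06, 10.3 and 12.3 CPM at day 1, 9.23, 4.00 and 6.02 CPM at day 4, and 8.04, 15.9 and 9.73 CPM at day 7. The PBS day 4 library at 7.68 CPM lay inside the range of days 1 and 4, so the groups overlapped. The log2 fold change was -0.98 at day 1 (SE 0.461, adjusted p = 0.299), -1.52 at day 4 (SE 0.472, adjusted p = 0.228) and -0.70 at day 7 (SE 0.456, adjusted p = 0.607). Over the 13 libraries Fgfr3 ran opposite to Fgf7 (r = -0.834, rho = -0.879), the most negative pair among the 10 genes. Of the marker lists, each taken as the mean log2 CPM of its genes, the erythroid and thymocyte markers followed Fgfr3 most closely (r = 0.653 and 0.604). The 5 erythroid markers summed to 6509 to 12860 CPM at steady state, 1334 to 5426 CPM at day 1, 6.09 to 6.97 CPM at day 4 and 1059 to 2941 CPM at day 7, and all 5 fell at day 4 against steady state (median log2 fold change -9.70). Their part in the level of Fgfr3 was not tested. The exons of Fgfr3 share 13.9% of their bases with G630022F23Rik on the opposite strand.

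Fgfr4, the receptor best known from the liver, was the least abundant. Fgfr4 (ENSMUSG00000005320, chr13:55152640-55168759, plus strand) was 3.05, 1.75, 4.37 and 1.45 CPM at steady state and 0.905, 1.44 and 1.403 CPM at day 1, all below steady state, although its highest library nearly reached the lowest of steady state. The log2 fold change at day 1 was -1.09 (SE 0.437, adjusted p = 0.224). It was 1.68, 1.49 and 1.74 CPM at day 4 and 2.89, 1.31 and 1.68 CPM at day 7, which overlapped with steady state.

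**Figure D4:**
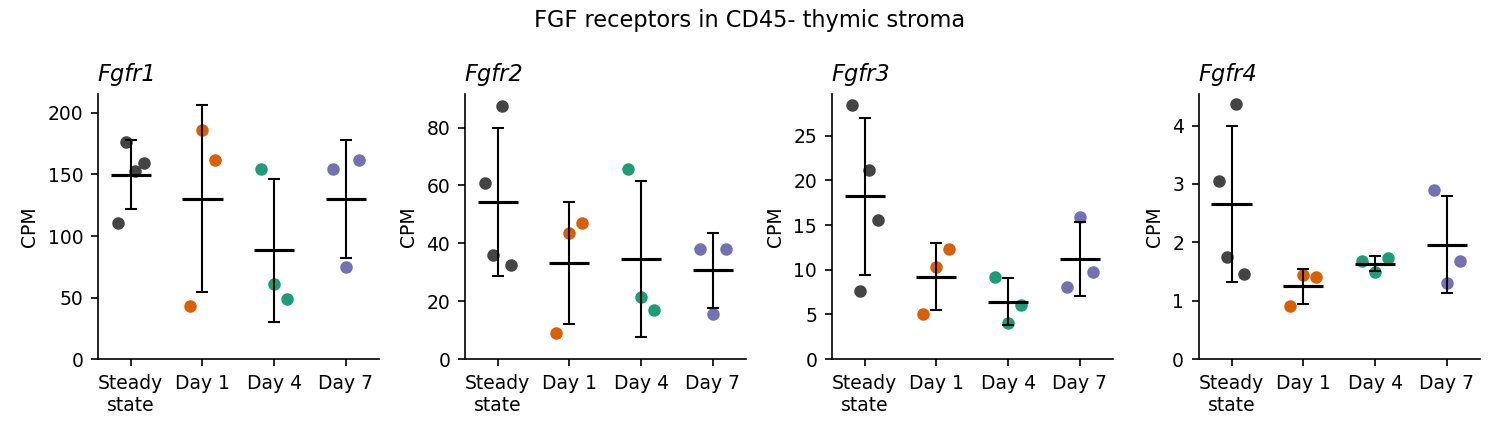
CPM of the 4 FGF receptors in each library (points) at steady state and at each day after TBI, with the group mean (horizontal line) and SD (error bars, n = 4 at steady state and n = 3 at each day); each panel has its own axis from 0. Fgfr1 and Fgfr2 have a single low library at days 1 and 7 and 2 low libraries at day 4, and only Fgfr4 at day 1 lies apart from steady state.

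Counted over the 10 genes, the libraries of 2 were wholly below steady state at day 1 (Fgf1 and Fgfr4), where 8.56% of all genes tested were. At day 4, 1 was wholly above (Fgf10, beside 6.44% of all genes), and at day 7, 1 was wholly below (Fgf21, beside 4.67%). Between times after TBI, 3 were wholly higher at day 4 than at day 1 (Fgf1, Fgf10 and Fgfr4, beside 12.6%). At day 7, 2 were wholly higher than at day 1 (Fgf1 and Fgf10, beside 12.7%) and 1 wholly lower (Fgf21, beside 14.8%), and 2 were wholly lower than at day 4 (Fgf10 and Fgf21, beside 14%). In the other directions there were none. Counts of 1 to 3 among 10 genes, beside shares of 4.67% to 14.8% over all genes, are not a result about the FGF genes as a group.

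The column names of the count table end in tags that the sources used here do not explain, by which the libraries fall into 3 families. In the 2 families with libraries of both groups, the difference in mean log2(CPM + 0.5) from steady state was -1.61 and -1.09 for Fgf1 at day 1, 0.27 and 1.95 for Fgf10 at day 4, and -1.76 and -0.62 for Fgf21 at day 7. Several of these differences rest on single libraries. The -1.61 of Fgf1 compares day 1 replicate 1 with PBS day 7 replicate 2 alone. The 1.95 of Fgf10 has the PBS day 4 library as its only control, and each value of Fgf21 at day 7 has a single control. For Fgf21 at days 1 and 4 the 2 families differed in direction.

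Ligands were then set against a receptor within each library, where the scaling between libraries drops out. The log2 ratio of Fgf10 to Fgfr2 counts was 0.20, -0.60, -0.40 and -0.14 at steady state. It was 2.28, -0.32 and -0.18 at day 1, 0.32, 2.29 and 2.26 at day 4, and 0.91, 1.96 and 0.51 at day 7. All libraries of days 4 and 7 lay above all of steady state, by 1.86 and 1.37 in mean. The exact two-sided permutation test gave p = 0.0571 for each, the smallest that 4 against 3 libraries allow (0.257 adjusted by Benjamini-Hochberg over 9 tests of 3 ratios). The highest 4 ratios belonged to the 4 libraries with the lowest Fgfr2.

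The ratio of Fgf7 to Fgfr2 overlapped with steady state at all 3 times, with mean log2 differences of 1.12, 1.23 and 0.98 (exact permutation p of 0.229 or more). Leaving out a library moved these differences by over 1.5 times. The day 1 difference was 0.20 without day 1 replicate 1, 0.65 without PBS day 7 replicate 1 and 1.70 without day 1 replicate 3. At day 4 it was 0.76 without PBS day 7 replicate 1, 0.80 without day 4 replicate 3 and 1.97 without day 4 replicate 1, and at day 7 it was 0.51 without PBS day 7 replicate 1. The ratio of Fgf2 to Fgfr1 was the steadiest. It ran from -2.63 to -2.10 on the log2 scale over all 13 libraries, with mean differences of -0.04, -0.05 and 0.05 against steady state (exact permutation p of 0.343 or more).

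**Figure D5:**
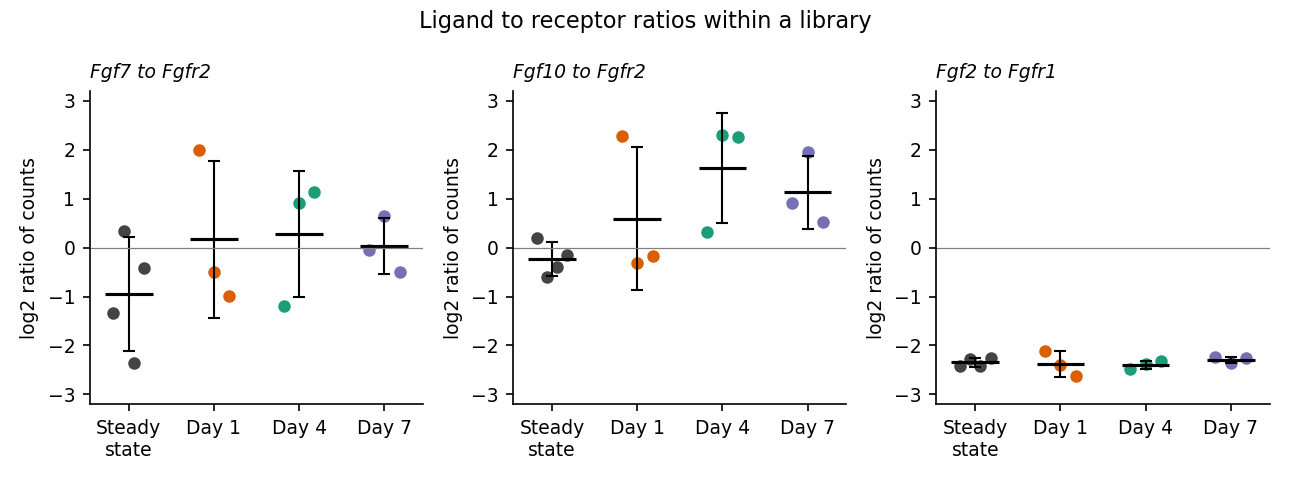
Log2 ratio of counts of Fgf7 to Fgfr2, Fgf10 to Fgfr2 and Fgf2 to Fgfr1 in each library (points), with the group mean (horizontal line) and SD (error bars, n = 4 at steady state and n = 3 at each day). For Fgf10 to Fgfr2 all libraries of days 4 and 7 lie above steady state, and for Fgf2 to Fgfr1 all 13 libraries lie between -2.63 and -2.10.

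Of 56 other genes of the pathway, listed by role, 55 had a row and 49 passed the filter. The other genes of the FGF family, not all of them secreted ligands (16 listed, 10 tested), had no gene past the threshold in any comparison. Nor had the co-receptors and binding proteins (8 of 8 tested) or the adaptors and transducers (7 of 7 tested). Fgf14, an intracellular FGF homologue, ran from 3.99 to 68.0 CPM. Its mean was 58.4 CPM at day 4, beside 18.5, 12.4 and 12.9 CPM at steady state, day 1 and day 7. The day 4 libraries lay above all others without passing the threshold. By edgeR the adjusted p of day 4 was 0.308 against steady state, 0.167 against day 1 and 0.105 against day 7. Fgf3, Fgf6, Fgf8, Fgf17, Fgf20 and Fgf22 did not pass the filter. The Klotho proteins that endocrine FGFs need were low and uneven. Klb, the co-receptor of Fgf21, had 0 counts in the PBS day 1 library, the one with the most Fgf21, a value that allows up to 3 counts, and reached up to 4.47 CPM elsewhere. Kl ran from 0.242 to 13.05 CPM.

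Among 13 tested feedback regulators and targets, 1 fell at day 1 against steady state and rose again by day 7, the ETS factor Etv1, a transcriptional target of FGF signals. Etv1 was 28.4, 13.8, 34.9 and 28.3 CPM at steady state and 11.6, 8.41 and 11.8 CPM at day 1. It was 22.3, 22.8 and 22.5 CPM at day 4 and 27.6, 18.5 and 22.4 CPM at day 7. The day 1 libraries lay below all others. Day 4 against day 1 gave a log2 difference of 1.08 (SE 0.308, adjusted p = 0.122 by edgeR), which did not pass. The log2 fold change was -1.31 at day 1 (SE 0.295, adjusted p = 0.0348 by edgeR), where 0.671% of all genes fell, and 1.10 for day 7 against day 1 (SE 0.308, adjusted p = 0.0454). Both calls sat near the threshold. Of the 13 fits that leave out a library, 3 kept the first (without PBS day 4, day 7 replicate 1 or day 7 replicate 2) and 1 the second (without PBS day 4), with adjusted p up to 0.144 and 0.142 in the others. The first call was also lost with the thymocyte score as covariate (adjusted p = 0.0650), with the GC trend removed (0.0554) and in a fit of only the groups compared (0.116). The second was lost in these fits too (0.170, 0.0589 and 0.0714), as well as with no filter on low counts (0.0547) and with at least 10 counts required in every library (0.0692). With the replicate number as a block both calls were lost.

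Among 11 heparan sulfate proteoglycans and sulfatases, 1 rose and 1 fell at day 7 against day 1, where 3.68% and 4.45% of all genes did. The glypican Gpc6, a cell-surface proteoglycan, was 16.3, 50.2 and 59.3 CPM at day 1 and 133, 82.5 and 104 CPM at day 7 (log2 difference 1.35, SE 0.374, adjusted p = 0.0451). The syndecan Sdc3 was 39.1, 200 and 145 CPM at day 1 and 31.6, 12.8 and 27.2 CPM at day 7 (log2 difference -2.43, SE 0.536, adjusted p = 0.0176). The means at steady state and day 4 were 95.2 and 102 CPM for Gpc6 and 37.4 and 30.7 CPM for Sdc3. Against steady state, the log2 fold change of Gpc6 was -1.18 at day 1 and 0.16 at day 7 (adjusted p = 0.114 and 0.950 by edgeR). That of Sdc3 was 1.78 and -0.65 (adjusted p = 0.0760 and 0.677 by edgeR). The call of Gpc6 was kept in 2 of the 13 fits that leave out a library (without PBS day 4 or day 1 replicate 3), and that of Sdc3 in 9. Sdc3 missed the threshold without day 1 replicate 2 (adjusted p = 0.0632), day 1 replicate 3 (0.0522), day 7 replicate 2 (0.0729) or day 7 replicate 3 (0.0575). In day 7 against day 1 all 11 thymocyte markers were higher at day 7, and with their score as a covariate none of Etv1, Gpc6 and Sdc3 passed. Fitted on only the groups compared, Gpc6 and Sdc3 missed the threshold (adjusted p = 0.169 and 0.0653), as did Sdc3 with the tag family as a covariate (0.0880).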

How the data were processed

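Bulk RNA-seq of CD45- thymic stroma was analyzed from 13 libraries. The authors trimmed reads with Trimmomatic 0.38, aligned them with STAR 2.7.0e to GRCm38.p5 and counted them per gene with featureCounts 1.6.3, and deposited whole-number counts without normalization. Default counting uses no strand, so reads of overlapping genes on opposite strands cannot be separated. The 4 steady-state columns carry a PBS day and replicate that cannot be matched to the label's number, and were used as a group.

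Counts were tested with edgeR 4.0.16 in R 4.3.3 in 1 fit of all libraries with a term for group (TMM, filterByExpr() by group, quasi-likelihood F-test). Of 53379 genes, 19984 passed. Genes were called at a Benjamini-Hochberg adjusted p of 0.05 or less. The SE is the log2 fold change over the square root of F. CPM use TMM-scaled library sizes, and RPKM also the deposited exonic length. Correlations are of log2(CPM + 0.5), and a list of markers enters as the mean of these values over its genes (its score). Ratios add 0.5 to counts. Counting error is covered by the SD over libraries. On simulated counts for day 1 against steady state (19984 genes, 200 changed), edgeR called 180 genes, 167 of them changed. The simulated log2 changes were of size 2 or 3, of which 73% and 94% were called. Smaller changes, the size of most estimates here, were not simulated.

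All 10 members, every listed pathway gene with a call and the 3 genes nearest to Fgf7, Fgf10, Fgf18, Fgf21, Fgfr2 and Fgfr3 were named, and correlations with single markers and Klotho values were added after values were seen. The genes nearest to Fgfr1 are not reported here. The members and gene lists were chosen with earlier results of these data known. Alternatives were DESeq2 1.42.0, RLE normalization, other filters, the replicate number as a block, tag family or thymocyte score as a covariate, only the groups compared, and each library left out; removal of the GC trend was added after seeing the data. Python 3.11.15 drew the plots with matplotlib 3.10.9.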

Additional observations from a re-analysis of the deposited data

Results flagged for a closer look

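Among 16 genes examined at steady state, 1 had a library far from the other 3, which chance alone gives in about 1 of 20 groups. This was Gpc6, for which the gap of the PBS day 4 library (118 CPM) to the next was 0.851 of the range of the group, above the limit of 0.829.

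The responses at 2 times after TBI differed from each other for 3 pathway genes, by the edgeR test of day 7 against day 1. The log2 difference was 1.10 for Etv1, 1.35 for Gpc6 and -2.43 for Sdc3. None of the 6 ligands and 4 receptors differed between times by this test.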

How the results depend on the processing

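Of the 60 pairs of a ligand or receptor and a comparison, 33 kept 1 direction in all alternatives run and 6 passed the threshold in at least 1. Where a value moved, the cause was not tested.

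In the order day 1, 4 and 7 against steady state, day 4 and day 7 against day 1, and day 7 against day 4, genes changed numbered 1399, 645, 1081, 960, 2940 and 1919 by DESeq2. With the replicate number as a block they numbered 209, 27, 0, 147, 655 and 95. The correlation of deviations between same-numbered libraries ran from -0.843 to 0.268 (mean -0.252), so the numbers do not pair the libraries. Fitted on only the groups compared, the first 3 and the last comparison gave 228, 146, 0 and 394. With tag family as a covariate the first 4 gave 1066, 33, 0 and 163. Days 4 and 7 against steady state and day 7 against day 4 gave 250, 627 and 1265 with no filter, and 20, 0 and 355 with at least 10 counts in every library, which gave 880 for day 7 against day 1. Given the thymocyte score as covariate, the 3 comparisons of day 7, against steady state, day 1 and day 4, gave 223, 417 and 19. With the GC trend removed day 4 against steady state gave 88. Leaving out each library gave 252 to 797, 19 to 226, 0 to 622, 87 to 362, 472 to 2043 and 15 to 1507 in the first order.

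Ligands and receptors changed numbered 1 (day 1 against steady state), 1 (day 7 against steady state), 1 (day 4 against day 1), 2 (day 7 against day 1) and 2 (any time) by DESeq2. They numbered 1 (day 7 against steady state), 2 (day 7 against day 1) and 1 (any time) with no filter, and 2 and 2 (days 4 and 7 against day 1) with only the groups compared. Leaving out each library gave 0 to 1 for days 1 and 7 against steady state and for any time, 0 to 2 for day 7 against day 1, and 0 elsewhere. For any time, the share over all genes was counted only in the main edgeR fit.

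Pathway genes changed numbered 3, 1, 5, 5 and 1 by DESeq2 for days 1 and 4 against steady state, days 4 and 7 against day 1, and day 7 against day 4. With no filter they numbered 2 (day 1 against steady state), 1 (day 4 against day 1) and 1 (day 7 against day 4). With the block, and with the thymocyte score, they numbered 0 for day 1 against steady state and 0 for day 7 against day 1, where Etv1 had an adjusted p of 0.0647 and 0.0748 with the block. With only the groups compared they numbered 0 (day 1 against steady state), 1 (day 7 against day 1) and 1 (day 7 against day 4). The GC trend removed gave 1 for day 4 against day 1, and tag family gave 1 for day 7 against day 4. Leaving out each library gave 0 to 1 for day 1 against steady state and day 4 against day 1, and 0 to 3 for day 7 against day 1.

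Small log2 fold changes changed sign. With the thymocyte score, Fgf7 became -0.15 and -0.34 at days 1 and 4 against steady state, -0.19 and 0.57 at days 4 and 7 against day 1, and 0.76 for day 7 against day 4. With it, day 7 against steady state became 0.049 for Fgf1, 0.26 for Fgf2, 0.63 for Fgf18 and 0.16 for Fgfr1, and day 7 against day 1 became 0.75 for Fgfr1, 0.20 for Fgfr2 and -0.60 for Fgfr3. Day 4 against day 1 became -0.17 for Fgfr2 and 0.011 for Fgfr3, and day 7 against day 4 became 0.37 for Fgfr2 and -0.61 for Fgfr3. With tag family, day 7 against steady state became 0.012 for Fgf1, 0.093 for Fgf2, -0.18 for Fgf7, 0.18 for Fgf18, 0.11 for Fgfr1 and 0.079 for Fgfr2. With tag family, Fgf7 became -0.15 for day 4 against day 1, Fgfr1 0.72 and Fgfr2 1.27 for day 7 against day 1, and Fgfr2 0.61 for day 7 against day 4. With the GC trend removed, Fgf1 became 0.014 for day 7 against steady state and Fgfr1 0.094 for day 7 against day 1. With the replicate block, Fgfr2 became -0.18 for day 4 against day 1.

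Leaving out each library, day 1 against steady state ran from -0.71 to 0.045 for Fgf2, -0.018 to 0.47 for Fgf7, -0.46 to 0.061 for Fgf10, -0.57 to 0.72 for Fgf18, -1.23 to 0.44 for Fgf21 and -0.54 to 0.22 for Fgfr1. Day 4 against steady state ran from -0.41 to 0.12 for Fgf1. Day 7 against steady state ran from -0.27 to 0.21 for Fgf1, -0.31 to 0.19 for Fgf2, -0.10 to 0.44 for Fgf7, -0.45 to 0.77 for Fgf18 and -0.36 to 0.11 for Fgfr1. Day 7 against day 1 ran from -0.19 to 0.57 for Fgf2, -0.23 to 0.11 for Fgf7, -0.31 to 0.44 for Fgf18, -0.42 to 0.34 for Fgfr1, -0.57 to 0.22 for Fgfr2 and -0.072 to 0.55 for Fgfr3. Fgfr2 ran from -0.73 to 0.40 for day 4 against day 1 and from -0.51 to 0.58 for day 7 against day 4, where Fgfr4 ran from -0.13 to 0.42. The log2 ratio at day 1 ran from -0.011 to 1.29 for Fgf10 to Fgfr2 and from -0.17 to 0.090 for Fgf2 to Fgfr1.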

Other observations

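The genes nearest in pattern to Fgf18, Fgfr2 and Fgfr3 over the 13 libraries were as follows. Ism1, which encodes a secreted protein, Basp1 and Wfs1 had r = 0.913, 0.887 and 0.886 with Fgf18. Slc26a10, Tnfaip3 and Asb2 had r = 0.957, 0.945 and 0.939 with Fgfr3, and Bahd1, 9330162012Rik and Nkx6-2 had r = 0.969, 0.967 and 0.965 with Fgfr2. These values share the libraries and their scaling.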
